A study of Homo sapiens with 6 samples.

Results

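The BCL2 family holds the proteins that decide whether the outer mitochondrial membrane stays intact or is opened during apoptosis. Pro-survival members bind and hold back the effectors BAX and BAK, which form the pores when they are freed. The BH3-only members sense damage, growth factor loss or other stress and either block the pro-survival members or activate the effectors. Opened mitochondria release cytochrome c, which assembles the apoptosome and starts the caspase cascade. Several pro-survival members are known as survival factors of squamous carcinoma cells.

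Transcripts of 10 members were examined in HSC-4 cells treated with DAPT. The members were taken by symbol from the 58884 genes of the count files. The pro-survival members were *BCL2*, *BCL2L1* and *MCL1*. The 7 pro-death members were the effectors *BAX* and *BAK1* and the BH3-only genes *BCL2L11*, *BBC3*, *PMAIP1*, *BID* and *BAD*. Each symbol had 1 row in the files, and all 10 genes passed the filter on low counts that left 15001 genes to test.

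HSC-4 cells are an established human line from a squamous cell carcinoma of the mouth, so all libraries come from 1 line. DAPT is a small molecule that inhibits γ-secretase, the protease that frees the intracellular part of Notch receptors. RNA was sequenced from 3 libraries of cells given 50 µM DAPT for 24 h and from 3 control libraries. The labels call the latter control, and the study's methods describe a DMSO vehicle. The control columns of the deposited files carry the letters GM, which are not explained. If these cells were kept in growth medium without DMSO, the vehicle cannot be told apart from DAPT. Total counts were between 12276313 and 16317672 reads per library, and 3 reads, taken as the smallest detectable signal, corresponded to between 0.187 and 0.248 CPM (read counts relative to the normalized depth of their library). Such a limit covers counting error only. In these bulk libraries, fewer cells that express a gene and less RNA of it per cell cannot be told apart.

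The Notch target genes *HES1* and *HEY1* were used to check the treatment. *HES1* was at 42.5, 50.3 and 48.2 CPM in the control libraries and at 27.9, 27.2 and 27.3 CPM in the DAPT libraries, and *HEY1* fell from a mean of 34.6 to 8.75 CPM. The squamous label was checked with 8 epithelial markers, whose summed level was 4828 to 5023 CPM in controls and 3093 to 3229 CPM with DAPT. Most of this sum was the keratin *KRT5*, at a mean of 2701 CPM in controls and 1315 CPM with DAPT. Of the 8 markers, 5 fell, 2 rose and 1 did not pass the test. Among all tested genes, 18.0% were called as lower and 17.2% as higher. The markers that rose were *CDH1* and *EPCAM*, each by 0.27 on the log2 scale (edgeR, adjusted p = 0.000139 and 0.000119). The keratin gene *KRT14* was nearly absent, at 36 to 49 reads in controls and 0 to 11 reads with DAPT. Of 8 markers of other cell types, the leukocyte gene *PTPRC* and the endothelial gene *PECAM1* had 0 to 2 reads in every library, and the endothelial gene *VWF* had 9 to 21. The macrophage gene *CD68* had 0 to 3 reads, but 81.6% of its exonic bases are shared with another gene on the same strand, where reads were not counted, so it shows nothing about macrophages. The collagen gene *COL1A1* had at least 652 reads in every library.

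Control replicate 1 stood apart from the other libraries. The fibroblast genes *COL1A1*, *COL3A1*, *DCN* and *LUM* were all higher in it, and the summed level of the 8 markers of other cell types was 333 CPM there, compared with 57.1 and 57.2 CPM in the other controls and 50.1 to 55.0 CPM with DAPT. *COL3A1* had 491 reads in it and at most 4 in any other library. The second principal component, with 14.7% of the variance, also set it apart. Results for the members are therefore given with and without this library. What part the fibroblast markers had in any result was not tested.

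Among the 10 members, 4 were higher and 1 was lower with DAPT at an adjusted p under 0.05 (edgeR quasi-likelihood test with Benjamini-Hochberg adjustment over all tested genes). The 5 called members were 50.0% of the list. Over all 15001 tested genes, 35.2% were called, 17.2% as higher and 18.0% as lower. The median log2 fold change of the members was 0.04, and that of all tested genes was 0.01. Without control replicate 1, 3 members were higher and 1 was lower, and 37.05% of the genes tested in that fit were called. In 4 members, the 3 DAPT libraries lay on one side of the 3 control libraries, and the same held for 46.3% of all tested genes. The called changes were small, from 0.831-fold for *BAX* to 1.36-fold for *BBC3*.

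The 3 pro-survival members did not move as a group, with 1 higher and none lower and a median log2 fold change of -0.01. Of all tested genes, 17.2% were called as higher and 18.0% as lower. *BCL2L1* (chromosome 20, 31664452 to 31723989, minus strand, GRCh38) encodes BCL-XL and, from the same gene, the shorter pro-death form BCL-XS. Counts per gene do not separate these forms. *BCL2L1* was at 141, 150 and 157 CPM in the control libraries and at 176, 170 and 173 CPM in the DAPT libraries. Every DAPT library was above every control library. The mean rose from 149 ± 7.90 to 173 ± 2.86 CPM (SD, n = 3), a log2 fold change of 0.21 with a standard error of 0.05 (edgeR, Benjamini-Hochberg adjusted p = 0.00255). It was called in all 6 fits that each left out 1 library, with adjusted p values up to 0.0120. Without control replicate 1, the log2 fold change of *BCL2L1* was 0.18 (edgeR, adjusted p = 0.0046). On the opposite strand, 43.0% of its exonic bases are covered by the long non-coding gene *ABALON*, and the reads were counted by strand.

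*MCL1* (chromosome 1, 150574551 to 150579738, minus strand) encodes a pro-survival protein with a very short lifetime. It was at 324, 309 and 321 CPM in controls and at 307, 317 and 325 CPM with DAPT. The groups overlapped almost completely. The log2 fold change was -0.01 with a 95% interval of -0.11 to 0.09, and the adjusted p was 0.926 (edgeR). When scaled by library size alone it was 0.04, and without control replicate 1 it was 0.01, so no direction can be given.

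*BCL2* (chromosome 18, 63123346 to 63320128, minus strand), the founding member, was barely expressed. It had 39, 38 and 24 reads in the control libraries and 20, 26 and 27 reads in the DAPT libraries. These corresponded to 2.43, 2.74 and 1.99 CPM in controls and to 1.30, 1.90 and 2.07 CPM with DAPT, and the highest DAPT library was above the lowest control. The log2 fold change was -0.46 with a 95% interval of -0.97 to 0.04 (edgeR, adjusted p = 0.149). Without control replicate 1 it was also -0.46 (edgeR, adjusted p = 0.208). What part the low read counts had in the missing call was not tested.

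The pro-death effectors are the proteins that form the pores in the mitochondrial membrane. Of these, 1 was lower and none was higher with DAPT, and the median log2 fold change was -0.18. Among all tested genes, 18.0% were called as lower and 17.2% as higher. *BAX* (chromosome 19, 48954815 to 48961798, plus strand) was at 37.37, 43.48 and 45.31 CPM in controls and at 33.84, 37.44 and 33.34 CPM with DAPT. The groups touched, because DAPT replicate 2 lay just above control replicate 1. The mean fell from 42.0 ± 4.16 to 34.9 ± 2.23 CPM (SD, n = 3), and the log2 fold change was -0.27 with a standard error of 0.08 (edgeR, adjusted p = 0.0133). Without control replicate 1, the log2 fold change of *BAX* was -0.35 and the adjusted p was 0.000373. The call was lost without control replicate 3 (adjusted p = 0.0671) or without DAPT replicate 3 (adjusted p = 0.0632).

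*BAK1* (chromosome 6, 33572547 to 33580293, minus strand) encodes the second effector. It was at 22.5, 28.4 and 25.8 CPM in controls and at 21.3, 25.08 and 25.05 CPM with DAPT. Replicate 1 was the lowest of its group in both conditions, and the groups overlapped. The log2 fold change was -0.10 with a 95% interval of -0.29 to 0.09 (edgeR, adjusted p = 0.416). Without control replicate 1 it was -0.19 (edgeR, adjusted p = 0.091).

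Of the 5 BH3-only members, 3 rose, none fell and 2 did not pass the test, and the median log2 fold change was 0.19. Over all 7 pro-death members, with 3 higher and 1 lower, the median was 0.08. These counts stand beside 35.2% called among all tested genes, 17.2% as higher and 18.0% as lower. *BCL2L11* (chromosome 2, 111119378 to 111168445, plus strand) encodes BIM, which binds all the main pro-survival proteins and can activate BAX and BAK directly. It was at 35.9, 35.1 and 34.0 CPM in controls and at 43.2, 42.0 and 45.8 CPM with DAPT. The groups were clearly separated. The mean rose from 35.0 ± 0.947 to 43.7 ± 1.95 CPM (SD, n = 3), and the log2 fold change was 0.32 with a standard error of 0.07 (edgeR, adjusted p = 0.00136). It was called in all 6 fits that left out a library, and without control replicate 1 the log2 fold change was 0.34.

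*PMAIP1* (chromosome 18, 59899948 to 59904306, plus strand) encodes NOXA, which binds chiefly MCL1 and promotes its degradation. It was at 51.07, 53.01 and 53.18 CPM in controls and at 60.5, 58.2 and 60.0 CPM with DAPT. Again the groups did not overlap. The mean of *PMAIP1* rose from 52.4 ± 1.17 to 59.6 ± 1.22 CPM (SD, n = 3), and the log2 fold change was 0.19 with a standard error of 0.06 (edgeR, adjusted p = 0.0196). The call was lost with DESeq2 (adjusted p = 0.0546) and in 4 of the 6 fits that left out a library, although it was kept without control replicate 1 (adjusted p = 0.0274).

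*BBC3* (chromosome 19, 47220822 to 47232766, minus strand) encodes PUMA, a p53-induced protein that binds all the main pro-survival members. It had 50, 45 and 38 reads in the control libraries and 72, 57 and 53 reads in the DAPT libraries, or 3.11, 3.25 and 3.15 CPM and 4.68, 4.17 and 4.07 CPM. The DAPT libraries were all above the controls. The log2 fold change was 0.44 with a standard error of 0.17 (edgeR, adjusted p = 0.0466). This call was lost in each of the 6 fits that left out a library, with the replicate block (adjusted p = 0.0535), with DESeq2 (adjusted p = 0.179), with limma-voom (adjusted p = 0.0501) and without the filter on low counts (adjusted p = 0.106). Without control replicate 1, the adjusted p was 0.0792.

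*BID* (chromosome 22, 17734138 to 17774770, minus strand) encodes the protein that caspase-8 cleaves to link death receptors with mitochondria. It was at 97.1, 105 and 106 CPM in controls and at 97.0, 96.4 and 102 CPM with DAPT. *BAD* (chromosome 11, 64269830 to 64284704, minus strand) encodes a protein that is held inactive by phosphorylation downstream of growth factors. *BAD* was at 70.6, 78.9 and 78.5 CPM in controls and at 75.2, 83.7 and 81.5 CPM with DAPT. In both genes the groups overlapped. The log2 fold change of *BID* was -0.06 with a 95% interval of -0.17 to 0.05, and that of *BAD* was 0.08 with an interval of -0.05 to 0.20. Neither passed the test (edgeR, adjusted p = 0.398 and 0.338). Without control replicate 1, the log2 fold changes of *BID* and *BAD* were -0.10 and 0.03 (edgeR, adjusted p = 0.125 and 0.759).

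**Figure D1:**
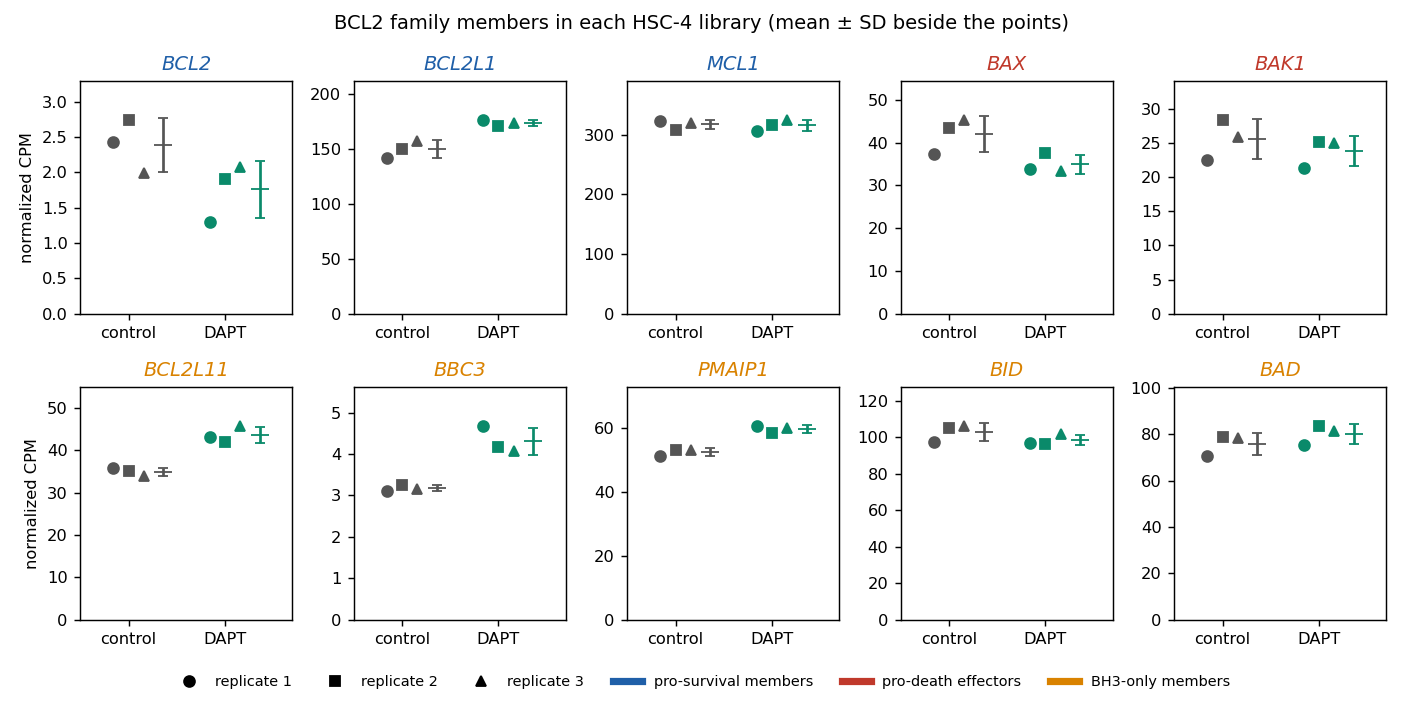
Normalized CPM (linear axis from 0) of the 10 members in the 3 control libraries (grey) and the 3 DAPT libraries (green). Marker shapes give the replicate number, and the bar beside the points is the mean ± SD (n = 3). The groups were separated for *BCL2L1*, *BCL2L11*, *BBC3* and *PMAIP1* and overlapped for the other members.

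Levels were compared between genes only per length, as CPM per kilobase of exon. In the control libraries, *MCL1* was the highest member at 72.7 ± 1.82 CPM per kilobase (SD, n = 3). *BCL2L1* followed at 45.1 ± 2.38 and *BAD* at 44.5 ± 2.75 CPM per kilobase, and their ranges overlapped. *PMAIP1* at 23.5 ± 0.525 and *BID* at 23.1 ± 1.09 CPM per kilobase also overlapped. All other neighbours in the order had separate ranges. They were *BAX* at 16.3 ± 1.61, *BAK1* at 11.6 ± 1.34, *BCL2L11* at 5.26 ± 0.142, *BBC3* at 0.997 ± 0.0223 and *BCL2* at 0.203 ± 0.0323 CPM per kilobase. The order of the 10 means was the same with DAPT, where *MCL1* was at 72.4 ± 2.13 and *BCL2* at 0.149 ± 0.0346 CPM per kilobase. Among the 3 pro-survival members, *BCL2* thus added little to *MCL1* and *BCL2L1*. Of the pro-survival relatives outside the 10 members, *BCL2L2* was at 16.7 and *BCL2L10* at 7.59 CPM per kilobase in the control means. The exonic length covers all annotated exons, so these levels understate genes with many long alternative exons.

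**Figure D2:**
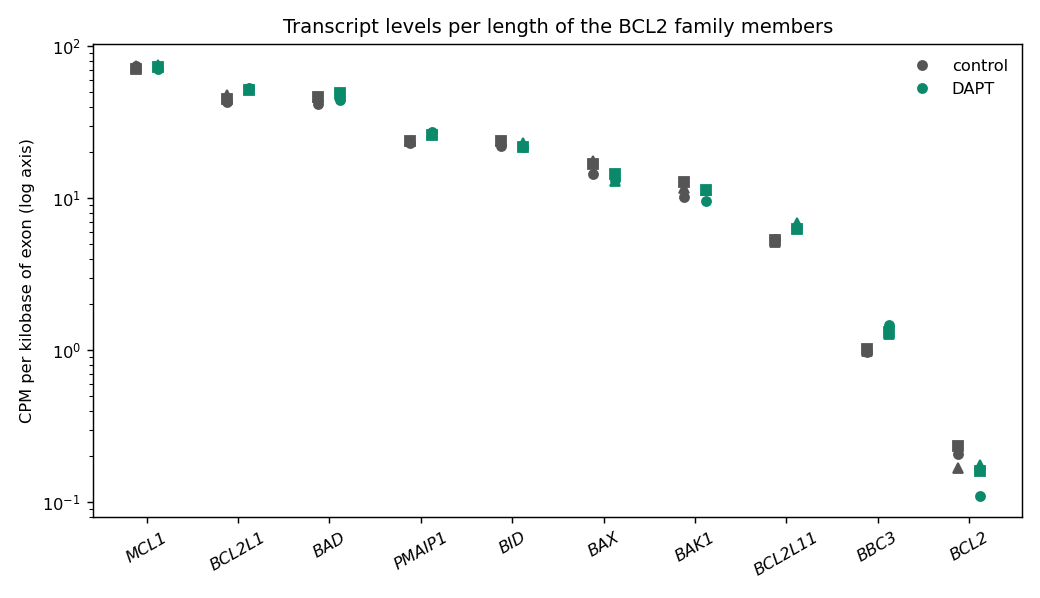
CPM per kilobase of exon (log axis) for each member, in order of the control mean, in control (grey) and DAPT (green) libraries. Circles, squares and triangles are replicates 1, 2 and 3. The levels ran from 72.7 CPM per kilobase for *MCL1* to 0.203 for *BCL2* in the control means.

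The balance of pro-survival and pro-death transcripts was taken in each library as the summed level per kilobase of the 3 pro-survival members over that of the 7 pro-death members. The ratio was 1.00, 0.897 and 0.938 in the control libraries and 0.999, 0.953 and 0.977 in the DAPT libraries. The DAPT values lay within the control range. The log2 difference of the means was 0.05, smaller than the pooled SD of 0.0609 between libraries of a group. The ratio is carried by a few genes. Without *MCL1* the log2 difference was 0.18, with ratios of 0.367, 0.351 and 0.369 in controls and of 0.431, 0.397 and 0.403 with DAPT. Without *BCL2L1* it was -0.04.

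Ratios between pairs of members are given as descriptions without a test, since the pairs were chosen after their values were seen. The level of *BAX* per kilobase over that of *BCL2L1* was 0.338, 0.372 and 0.369 in controls and 0.246, 0.281 and 0.247 with DAPT. *BCL2L11* over *MCL1* was 0.0729, 0.0747 and 0.0697 in controls and 0.0925, 0.0871 and 0.0924 with DAPT. *BCL2L1* over *MCL1* was 0.576, 0.639 and 0.647 in controls and 0.757, 0.710 and 0.701 with DAPT. For these 3 pairs, the groups did not overlap, which largely restates the changes of the single members and adds no separate result. The same held for *PMAIP1* over *MCL1*, while the groups overlapped for *BAX* over *BAK1*. For *BCL2L11* over *BCL2L1*, which both rose, the ratio was 0.126, 0.117 and 0.108 in controls and 0.122, 0.123 and 0.132 with DAPT, and the groups overlapped.

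**Figure D3:**
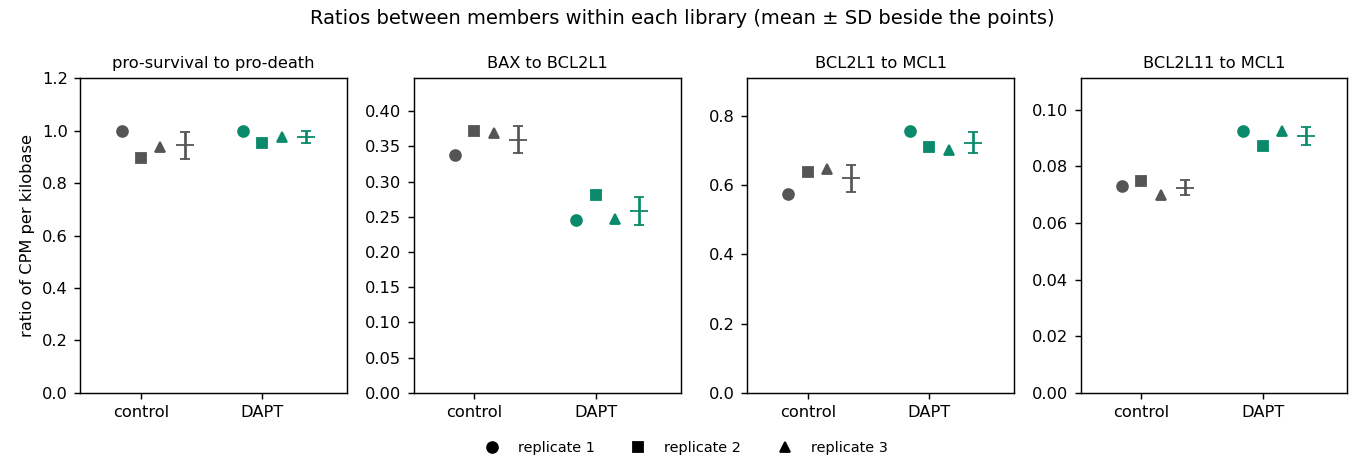
Ratios of CPM per kilobase within each library (linear axes from 0), for controls (grey) and DAPT (green), with marker shapes for the replicates and the mean ± SD (n = 3) beside them. The ratio of all pro-survival to all pro-death members overlapped between groups, while *BAX* to *BCL2L1* was lower and *BCL2L1* to *MCL1* and *BCL2L11* to *MCL1* were higher in every DAPT library.

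Promoters of the members were read from RefSeq (GRCh38.p14) as the 250 bases before each annotated start. An entry was found for 9 of the 10 members, with 15 starts in all, and not for *MCL1*. Both strands were searched for TGTGGGAA, bound by the Notch partner RBPJ, and for its core TGGGAA, which the longer motif contains. The other motifs were TGATGNAAT for heterodimers of C/EBP and ATF proteins, TGACGTCA for the cAMP response element and CACGTG for the E-box, the sequence bound by MYC and related factors. TGTGGGAA, TGATGNAAT and TGACGTCA were found in no member promoter, and in 1.43%, 0.888% and 1.65% of all 35116 promoters. TGGGAA was found in *BAK1* and *BID*, and in 20.8% of all promoters. CACGTG was found in *BAX*, *BBC3* and *BID*, and in 6.34% of all promoters. These shares are per promoter, while a member with several starts, such as *BID* with 5, was counted if any of them matched. Member counts and shares are therefore not directly comparable. A match is a string of letters and shows neither binding nor use, and its absence says nothing about regions outside these windows.

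Whether E-box matches relate to the changes was not tested, and *BID*, which also had matches but did not pass the test on expression, is not shown. Shown here are the promoter of *BAX*, with 4 E-box matches, that of *BBC3*, with 1, and that of *BCL2L11*, with none. They are at chr19:48954625-48954874 (plus strand), chr19:47232668-47232917 (minus strand) and chr2:111120664-111120913 (plus strand) in GRCh38.p14. Each is written 5′ to 3′ on the strand of the gene, and capitals mark CACGTG.
BAX: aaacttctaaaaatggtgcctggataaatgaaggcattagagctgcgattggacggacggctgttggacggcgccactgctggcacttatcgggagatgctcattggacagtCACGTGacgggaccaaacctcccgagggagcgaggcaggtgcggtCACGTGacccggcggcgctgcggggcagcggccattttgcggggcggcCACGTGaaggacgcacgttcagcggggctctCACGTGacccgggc
BBC3: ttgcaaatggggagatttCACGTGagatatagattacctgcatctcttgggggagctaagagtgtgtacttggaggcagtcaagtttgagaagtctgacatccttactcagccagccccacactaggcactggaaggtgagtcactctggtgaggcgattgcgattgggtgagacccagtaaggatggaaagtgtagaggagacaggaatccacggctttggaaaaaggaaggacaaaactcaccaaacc
BCL2L11: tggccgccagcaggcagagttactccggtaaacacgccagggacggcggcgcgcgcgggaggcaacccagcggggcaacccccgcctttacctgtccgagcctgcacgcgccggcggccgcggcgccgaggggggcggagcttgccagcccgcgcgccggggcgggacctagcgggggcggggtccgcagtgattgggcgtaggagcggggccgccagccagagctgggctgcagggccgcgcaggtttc
The 4 matches in *BAX* began 138, 93, 45 and 14 bases before the start, and the match in *BBC3* began 232 bases before it.

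The rest of the BCL2 family comprised 13 further genes, of which 11 could be tested. *BCL2A1* and *BCL2L15* had at most 6 reads in any library. With DAPT, 4 of the 11 rose, 4 fell and 3 did not pass the test, so that 72.7% were called beside 35.2% of all tested genes. Their median log2 fold change was -0.04. The changes went both ways among genes of like function. The counts were the same without control replicate 1, where 37.05% of tested genes were called.

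Of the pro-survival relatives, *BCL2L2*, which encodes BCL-W, was at 66.9, 69.0 and 73.8 CPM in controls and at 76.5, 85.0 and 86.8 CPM with DAPT, a log2 fold change of 0.24 (edgeR, adjusted p = 0.00318). Of its exonic bases, 19.4% are shared with the readthrough gene *BCL2L2-PABPN1* on the same strand, and reads there were not counted. *BCL2L10* moved the other way, from 9.28, 10.98 and 9.77 CPM to 5.13, 6.73 and 5.07 CPM. Its log2 fold change was -0.83 with a standard error of 0.14 (edgeR, adjusted p = 6.89e-05). No DAPT library reached the lowest control in *BCL2L10*.

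Of the BH3-only relatives, *BMF*, whose protein is held at the cytoskeleton until cells detach, was at 81.5, 82.5 and 85.2 CPM in controls and at 114, 104 and 106 CPM with DAPT. Its log2 fold change was 0.38 with a standard error of 0.05 (edgeR, adjusted p = 9.28e-06). *HRK*, best known from dying neurons, had 38, 49 and 24 reads in controls and 78, 59 and 54 reads with DAPT, a log2 fold change of 0.77 with a standard error of 0.20 (edgeR, adjusted p = 0.00486). *BIK* fell, from 23.2, 22.2 and 25.4 CPM to 12.3, 18.1 and 15.4 CPM. The log2 fold change of *BIK* was -0.64 with a standard error of 0.11 (edgeR, adjusted p = 0.000221). The groups of all 3 genes were separate, and each was called in all 6 fits that left out a library.

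*BNIP3*, a hypoxia-induced mitochondrial protein with roles in mitophagy, fell from 330 ± 6.62 to 260 ± 10.4 CPM (SD, n = 3), a log2 fold change of -0.34 (edgeR, adjusted p = 1.14e-05). Its relative *BNIP3L* had a log2 fold change of -0.04 and did not pass the test (adjusted p = 0.570, edgeR). *BCL2L13*, a mitochondrial outer membrane protein that also serves mitophagy, rose with a log2 fold change of 0.22, and *BCL2L12* fell with one of -0.38 (edgeR, adjusted p = 0.00178 and 0.00327). On the opposite strand, 33.1% of the exonic bases of *BCL2L12* are covered by *IRF3*. The effector relative *BOK* was at -0.13 and *BCL2L14* at 0.00 on the log2 scale, and neither passed the test (edgeR, adjusted p = 0.263 and 0.995).

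**Figure D4:**
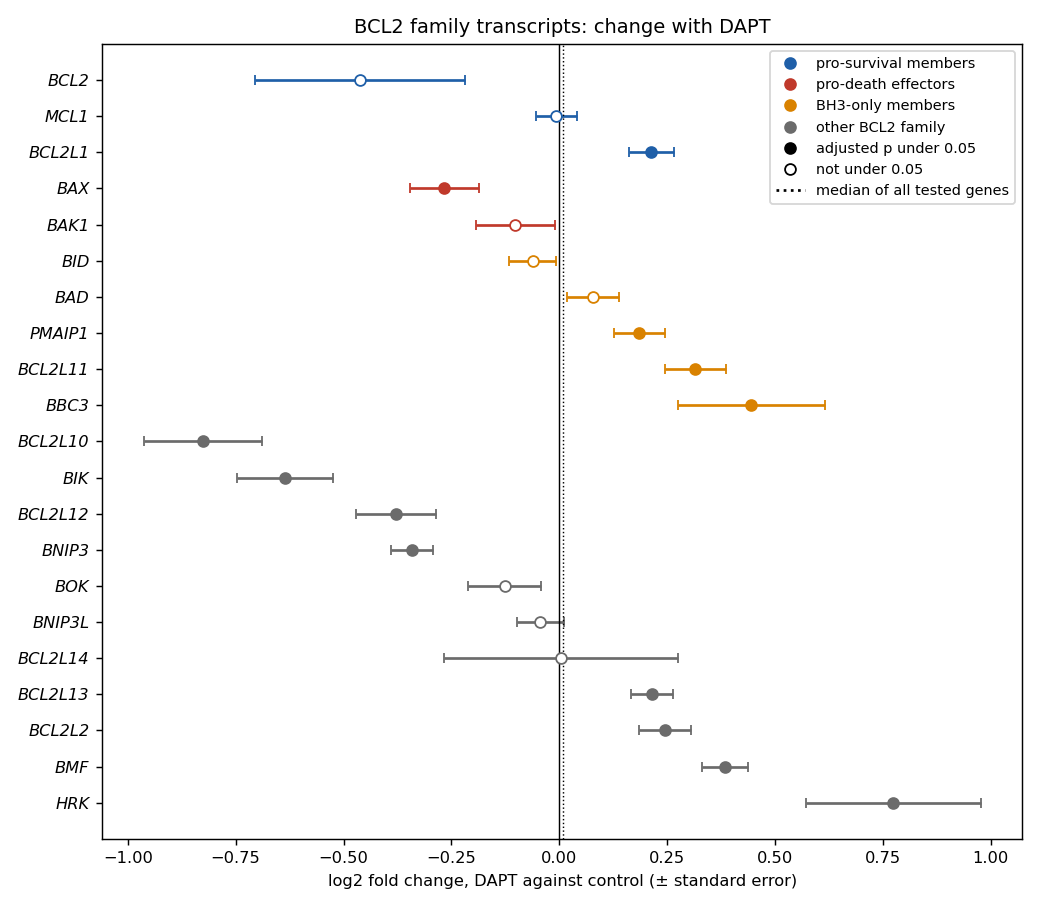
Log2 fold change (DAPT against control, ± standard error derived from the edgeR F statistic) of the 10 members by role and of the 11 tested relatives. Filled points have an adjusted p under 0.05, and the dotted line is the median of all tested genes at 0.01. The BH3-only genes lay on both sides of 0, from *BIK* at -0.64 to *HRK* at 0.77.

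Downstream of the mitochondria, 3 of the 15 apoptosome, caspase and released mitochondrial genes were called, beside 35.2% of all tested genes. With DAPT, 2 were higher and 1 was lower, and the other 12 did not pass the test. The median log2 fold change was -0.02. *HTRA2*, a mitochondrial protease that relieves inhibition of caspases, fell by 0.33 on the log2 scale (edgeR, adjusted p = 0.00109). *CASP10*, an initiator caspase of death receptors, rose by 0.30 (edgeR, adjusted p = 0.0232), and *CASP8*, its relative, by 0.20 (edgeR, adjusted p = 0.0495). The groups overlapped for *CASP8*, whose call was kept in 1 of the 6 fits that left out a library. That of *CASP10* was kept in 2 of them.

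Inhibitor of apoptosis proteins bind caspases or control ubiquitination in death receptor signalling. Of 7 genes, 5 could be tested, and 2 rose and 1 fell, with a median log2 fold change of 0.13. These 3 of 5 stand beside 35.2% called among all tested genes. Without control replicate 1, 3 were higher and 1 was lower, beside 37.05% called among all genes tested in that fit. *XIAP*, the direct inhibitor of caspases, was at 73.9, 66.4 and 77.0 CPM in controls and at 88.3, 90.7 and 89.8 CPM with DAPT. *BIRC3*, which encodes cIAP2, was at 56.0, 51.6 and 52.7 CPM in controls and at 67.5, 65.0 and 69.4 CPM with DAPT. Both were higher in every DAPT library, with log2 fold changes of 0.31 and 0.33 (edgeR, adjusted p = 0.000294 and 0.000189). *BIRC5*, which encodes survivin, a protein made mostly in dividing cells, fell by 0.17 (edgeR, adjusted p = 0.0127) and was called in 4 of the 6 fits that left out a library. *BIRC7* and *NAIP* could not be tested at their read counts.

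In the death receptor pathway, 11 of 13 genes could be tested, and 4 rose and 2 fell, with a median log2 fold change of 0.03. The share called was 54.5%, compared with 35.2% of all tested genes. *TNFSF10*, the gene of the death ligand TRAIL, had the largest change of the list. It was at 373, 337 and 317 CPM in controls and at 153, 130 and 133 CPM with DAPT, a log2 fold change of -1.30 with a standard error of 0.07 (edgeR, adjusted p = 1.70e-10). *RIPK1*, an adaptor kinase, and *CFLAR*, which encodes the caspase-8 inhibitor FLIP, each rose by 0.40 (edgeR, adjusted p = 3.59e-05 and 0.000203). *TNFRSF25* fell by 0.37 on the log2 scale (edgeR, adjusted p = 0.00719). Without control replicate 1, 4 genes of this list were higher and 3 were lower, beside 37.05% called among all genes tested in that fit.

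*BBC3*, *PMAIP1* and *BAX* are known p53-induced genes, and 12 further p53-induced genes linked to cell death were listed. Of the 11 tested, 2 rose, 3 fell and 6 did not pass. *TP53I3* rose by 0.41 and *ZMAT3* by 0.36, while *FDXR* fell by 0.46 and *AEN* by 0.28 on the log2 scale (edgeR, adjusted p = 0.000286, 0.00202, 0.000428 and 0.0302). The share called was 45.5%, compared with 35.2% of all tested genes, and the median log2 fold change was -0.03. *AEN* was not called without control replicate 1 (edgeR, adjusted p = 0.0752). Without control replicate 1, 3 were higher and 2 were lower, beside 37.05% called among all genes tested in that fit.

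Of 12 transcription factors known to act on BH3-only genes, 4 rose and 5 fell, with a median log2 fold change of 0.01. These were 75.0% of the list, and 35.2% of all tested genes were called. *DDIT3*, which encodes the stress factor CHOP, was at 16.7, 18.4 and 16.4 CPM in controls and at 35.4, 45.9 and 41.6 CPM with DAPT. Its log2 fold change was 1.25 with a standard error of 0.09 (edgeR, adjusted p = 1.32e-09). Other genes overlap its exons, over 8.03% of the bases on the same strand and 31.6% on the opposite strand. *MYC* was at 67.5, 72.4 and 72.8 CPM in controls and at 41.9, 40.8 and 41.8 CPM with DAPT, a log2 fold change of -0.77 (edgeR, adjusted p = 2.70e-09). *TP73*, a relative of p53, and *ATF3*, a stress-induced factor, had log2 fold changes of -0.71 and 0.68 (edgeR, adjusted p = 1.57e-06 and 0.00317). The groups of these 4 factors did not overlap.

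The last list held 18 genes for the turnover or sequestering of family members, such as ubiquitin ligases of MCL1, proteins that hold phosphorylated BAD in the cytosol, and channels of the outer membrane. With DAPT, 3 rose and 7 fell, with a median log2 fold change of -0.06. The share called was 55.6%. Of all tested genes, 35.2% were called, 17.2% as higher and 18.0% as lower. *SFN*, an epithelial gene of the family that binds phosphorylated BAD, fell from 375 ± 28.3 to 255 ± 18.3 CPM (SD, n = 3), a log2 fold change of -0.55 (edgeR, adjusted p = 7.70e-07). *VDAC1*, a channel of the outer mitochondrial membrane, fell from 198 ± 8.72 to 136 ± 5.79 CPM (SD, n = 3), with a log2 fold change of -0.54 (edgeR, adjusted p = 4.37e-08). *YWHAQ* and *YWHAH*, of the same family as *SFN*, fell by 0.32 and 0.29 (edgeR, adjusted p = 2.47e-05 and 7.29e-05). Without control replicate 1, 3 rose and 6 fell, beside 37.05% called among all genes tested in that fit.

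**Figure D5:**
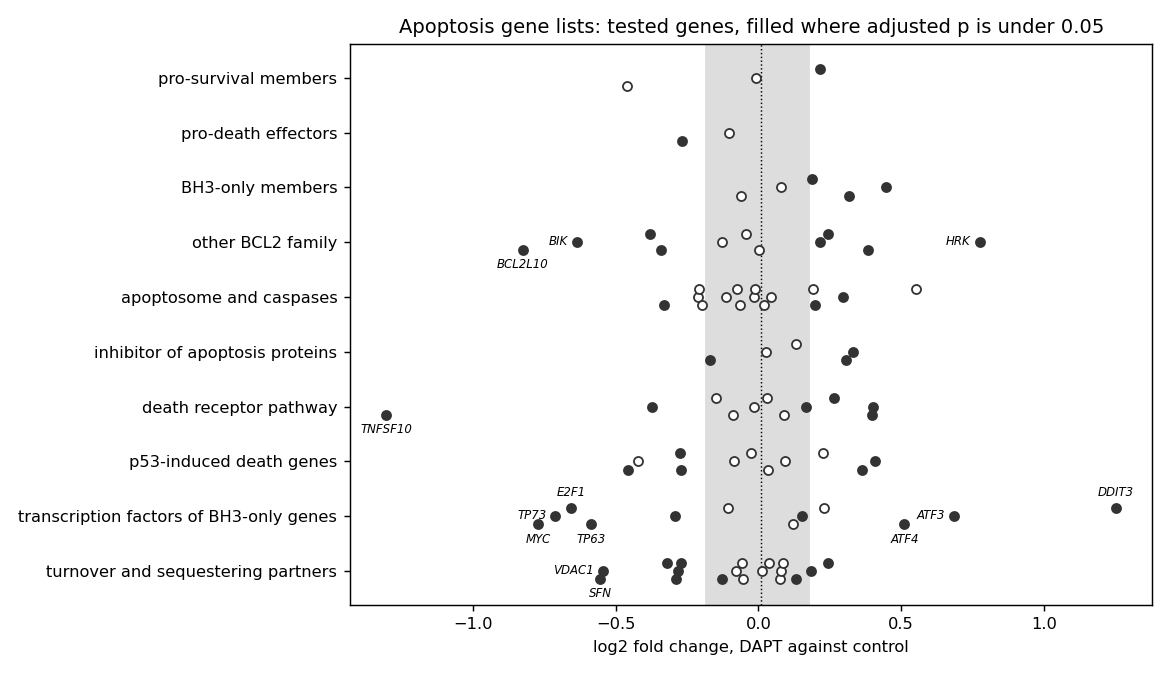
Log2 fold change (DAPT against control) of every tested gene of the members and of the 7 other apoptosis lists. Filled points have an adjusted p under 0.05, the dotted line and grey band are the median and the middle quartiles (-0.18 to 0.18) of all tested genes, and called genes with a change over 0.5 are named. *TNFSF10* at -1.30 and *DDIT3* at 1.25 lay farthest out, and the members lay between -0.46 and 0.44.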

How the data were processed

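RNA-seq read counts of 3 control and 3 DAPT libraries of HSC-4 cells were analysed. The authors used Trim Galore for trimming, HISAT2 for alignment to GRCh38 and featureCounts 1.6.3 for strand-specific counting over the exons of Ensembl release 96 genes. The deposited values are these raw counts, not normalized. The processing notes also name bcl2fastq 2.19, HTSeq and DESeq2. By the defaults of featureCounts, reads that map to several places or overlap several genes are not counted. Of 58884 genes, 58472 were matched by identifier to symbols of GENCODE release 44.

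Groups and replicate numbers were taken from the labels, and dose and time also from the methods. Nothing says that the libraries came from separate cultures, so p-values measure only the spread between these samples, which may be technical. No libraries were alike within sampling noise (chi-square per degree of freedom 1.58 to 5.68 between replicates). In both groups, the pairs with replicate 1 differed most. They were at 5.68 and 5.58 in controls, where the other pair was at 1.58. With DAPT they were at 4.08 and 3.90, and the other pair was at 1.81. Counts were tested with edgeR 4.0.16 in R 4.3.3, after its low-count filter (minimum count 10, by group) and TMM scaling. The robust quasi-likelihood F test was used, p-values were adjusted by Benjamini-Hochberg over 15001 genes, and genes were called at an adjusted p under 0.05. Standard errors are not an output of this test. They were derived from the log2 fold change and its F statistic, and the 95% intervals were built from them. The procedure was tested on simulated data with 200 changed genes, each changed by more than any member was here. How well it detects changes as small as those of the members was not tested. CPM are TMM-normalized, and lengths are the union of the exons in the count files. Alternatives were DESeq2 1.42.0, limma-voom (limma 3.58.1), RLE factors, library size alone, no filter, the replicate block, each library left out, and an adjusted p under 0.01.

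The members and lists were chosen with earlier results of these data known, and no list was tested as a set. Named were all members, all tested relatives, and in each other list up to 4 called genes with the largest change, besides *HES1* and *HEY1*. Cell type markers were named after their values were seen. Promoters came from RefSeq (GRCh38.p14), and protein sequences were not analysed here.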

Additional observations from a re-analysis of the deposited data

How the results depend on the processing

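Of the 10 members, 5 were called, beside 35.2% of all tested genes. The count of members was 3 with DESeq2, 2 at an adjusted p under 0.01, and 2 to 4 when each library was left out in turn. *BCL2L1* and *BCL2L11* were called under each of the 13 alternatives. The call of *BBC3* was lost under 11 of the 13, that of *PMAIP1* under 6 and that of *BAX* under 3. *MCL1* had a log2 fold change of -0.01 that turned to 0.04 with library size alone, to 0.0088 without control replicate 1 and to 0.0154 without DAPT replicate 1. When libraries were left out it ranged from -0.0307 to 0.0154. No other member changed direction. Over all 15001 tested genes, 5281 were called, 3974 with DESeq2 and 3338 at an adjusted p under 0.01. When libraries were left out, 4174 to 5618 were called. Of the genes in the 7 other apoptosis lists, 44 were called, and 37 to 45 when libraries were left out. With the replicate block, 5295 genes were called, and of the members only *BBC3* lost its call (adjusted p = 0.0535, edgeR). Over all tested genes, deviations from the group mean were nearly uncorrelated between libraries of the same replicate number (correlations 0.0173, 0.0252 and 0.0038). Shared deviations in single genes are not excluded by these correlations. The log2 difference of the pro-survival to pro-death ratio was 0.05, and it was -0.0402 without *BCL2L1* and 0.18 without *MCL1*. Read counts were low for *BCL2* and *BBC3*, with 20 to 72 reads per library. The causes of these shifts were not tested.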
